A study of Mus musculus with 2 samples.

Results

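The unfolded protein response (UPR) and the chaperones of the endoplasmic reticulum (ER) were described as 38 genes, out of 24421 gene symbols with deposited values. The genes were chosen by name, from what is known of the pathway, but with earlier results of these data already known. They were split into 8 genes of BiP and its cochaperones, 7 lectin chaperones and disulfide isomerases, 2 genes of the IRE1/XBP1 arm, 3 of the ATF6 arm, 9 of the PERK/ATF4 arm and 9 of ER-associated degradation. The RNA came from granulocyte-monocyte progenitors (GMPs), the bone marrow cells that give rise to neutrophils and monocytes, which were sorted by flow cytometry from female mice labelled F1 semi-syngeneic (H-2b/d). One group, NTB-GMP, came from mice without a tumor, and the other, 4T1-GMP, from mice in which cells of the murine breast cancer line 4T1 had been implanted orthotopically. The labels name no transgene and no drug for either group, and the sources do not say how many mice were pooled. The study's methods describe a GMP sort for experiments that grew suppressor cells from GMPs. It began with the removal of cells with Ter-119, Gr-1, B220 or CD3 on their surface. Whether the cells of these libraries were sorted in that way is not stated there. Each group had 1 bulk RNA-seq library, so there is no replicate error and no p-value is given, and intervals cover counting error of reads without molecular identifiers only.

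Proteins that enter the ER fold with the help of BiP, lectin chaperones and protein disulfide isomerases. When unfolded proteins accumulate, 3 sensors in the ER membrane respond. IRE1 splices the mRNA of XBP1, ATF6 is cut in the Golgi to release a transcription factor, and PERK phosphorylates eIF2α, which slows translation while favoring that of ATF4. The factors XBP1 and ATF6 act largely on genes for chaperones and for ER-associated degradation, the route by which misfolded proteins are returned to the cytosol and destroyed. ATF4 acts on genes of amino acid supply, on CHOP and on the GADD34 phosphatase subunit that restores translation. Progenitors of the granulocyte lineage make large amounts of granule proteases and myeloperoxidase, all of which pass through the ER.

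Promoter sequence was examined first, because a shared letter pattern is known to join many of the chaperone genes. The ER stress response element (ERSE) has the letters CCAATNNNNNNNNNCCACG, where N is any base. Its first box is bound by NF-Y and its second by ATF6 or XBP1. Windows of 300 bases, from 250 before to 50 after the start, were available from RefSeq (GRCm38.p6) for 33 of the 38 members, and were searched on both strands. Hyou1, Manf, Atf6, Ppp1r15b and Derl1 were not matched. The ERSE letters stood in the windows of 9 of 33 members (27.3%) and of 37 of all 27025 genes with a window (0.137%). The 37 include the 9. The pattern is known from chaperone genes, and the members were chosen as known genes of the pathway. The shares of members and of genes given for each pattern therefore describe that choice and test nothing. The 10 matches in members lay between 25 and 193 bases before the start, 6 of them on the strand of the gene and 4 on the other. They are printed here with 5 bases on each side, each read 5′ to 3′ along the strand given, with capitals at the fixed letters of both boxes.
Hspa5 (chr2:34772020-34772048, + strand): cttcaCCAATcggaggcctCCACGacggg
Hsp90b1, far match (chr10:86705633-86705661, - strand): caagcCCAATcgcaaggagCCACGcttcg
Hsp90b1, near match (chr10:86705528-86705556, + strand): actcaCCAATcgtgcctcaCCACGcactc
Dnajc3 (chr14:118937822-118937850, + strand): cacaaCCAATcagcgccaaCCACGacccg
Calr (chr8:84847070-84847098, + strand): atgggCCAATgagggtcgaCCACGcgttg
Canx (chr11:50325795-50325823, - strand): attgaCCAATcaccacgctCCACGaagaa
Pdia6 (chr12:17266486-17266514, + strand): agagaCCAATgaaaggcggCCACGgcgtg
Creld2 (chr15:88819515-88819543, - strand): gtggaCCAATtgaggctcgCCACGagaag
Derl3 (chr10:75893237-75893265, - strand): gctagCCAATggggaagtcCCACGgtaga
Syvn1 (chr19:6046527-6046555, + strand): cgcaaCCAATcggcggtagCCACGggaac

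Distances are from the RefSeq start of the window. The gene model of Hspa5 in GENCODE M21 begins 120 bases earlier, so that its match lies inside the first exon of that model, and it is the only 1 of the 13 matches printed here that lies inside the GENCODE gene of the same symbol. The longer stretch before Hsp90b1 is printed because it holds both of its matches. It covers the 185 bases on chr10:86705510-86705694, read along the - strand, which lie before the start in RefSeq and in GENCODE. It holds 5 CCAAT boxes over both strands and 2 CCACG boxes, and the near match reads in the reverse direction here.
Hsp90b1: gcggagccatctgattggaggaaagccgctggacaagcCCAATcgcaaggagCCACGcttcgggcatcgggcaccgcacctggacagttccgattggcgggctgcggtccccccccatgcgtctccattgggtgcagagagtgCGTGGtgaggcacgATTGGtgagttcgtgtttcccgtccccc

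Other patterns were rarer among the members. The ERSE-II letters ATTGGNCCACG stood in the windows of Herpud1 and Dnajb11, which is 6.06% of members against 0.0444% of genes. The match of Dnajb11 ended 18 bases after the start and is not printed. The letters TTGCATCA, one form of the composite site bound by ATF4 with a C/EBP partner, stood before Chac1 and Herpud1, against 1.03% of genes. The UPR element core TGACGTGG was in 0 of the 33 windows and in 0.714% of genes. The matches before the start are printed next, with capitals at the fixed letters.
Herpud1, ERSE-II (chr8:94386372-94386392, + strand): cgctgATTGGgCCACGttgga
Herpud1, ATF4 composite site (chr8:94386312-94386329, + strand): gcgggTTGCATCAgcccg
Chac1, ATF4 composite site (chr2:119351044-119351061, + strand): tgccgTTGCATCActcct

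Values are RPKM, as deposited, that is, reads scaled to the length of the gene and the size of the library. The log2 ratio of 4T1-GMP over NTB-GMP was taken after adding a pseudocount of 0.1 to each RPKM. A gene was tested where its RPKM averaged 1 or more over both libraries, and was called at a fold of 1.5, a log2 ratio of 0.58. Whole reads recovered from the RPKM gave 95% Clopper-Pearson intervals. The size behind the RPKM was 10180365 reads for NTB-GMP and 2.95 times that for 4T1-GMP. The precursor of ribosomal RNA, Rn45s, took up 17.0% and 6.98% of those reads, and its omission would shift every log2 ratio by -0.16. Over the 10378 tested genes the median log2 ratio was 0.05 (interquartile range -0.26 to 0.32).

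Most of the 38 genes were higher in 4T1-GMP, and every chaperone was among these. Of 36 tested members, 29 were higher and 7 lower, where 54.7% of all tested genes were higher by any amount. Their median log2 ratio was 0.48 (interquartile range 0.14 to 0.67). At 1.5-fold, 15 members (41.7%) were higher, against 9.80% of all tested genes, and 3 members (8.33%) were lower, against 11.6%. Derl3 reached the minimum only through its value in 4T1-GMP, and 14 members were called higher where a mean RPKM of 5 was required. The counting interval lay above 0 for 24 members, below 0 for 6, and included 0 for 6. The remaining members, Trib3 and Chac1, were under the minimum. The interval of Derl1, which included 0, may be too wide, since the reads recovered for it may be too low. When library sizes were taken without Rn45s, 7 members were at least 1.5-fold higher and 4 lower, where 5.73% and 17.0% of all tested genes were. These 7, which were called in the first count as well, were Hspa5, Dnajb11, Sdf2l1, Manf, Creld2, Xbp1 and Asns. The same genes and Derl3 were called higher after quantile normalization, 8 members in all, against 9.48% of all tested genes. Abundant transcripts leaned higher as a class. In the values as reported, 565 genes averaged 100 RPKM or more over both libraries. Their median log2 ratio was 0.24, and 12.9% of them were at least 1.5-fold higher. Of the 12 members at that level, 12 were higher, 7 of them by at least 1.5-fold.

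**Figure D1:**
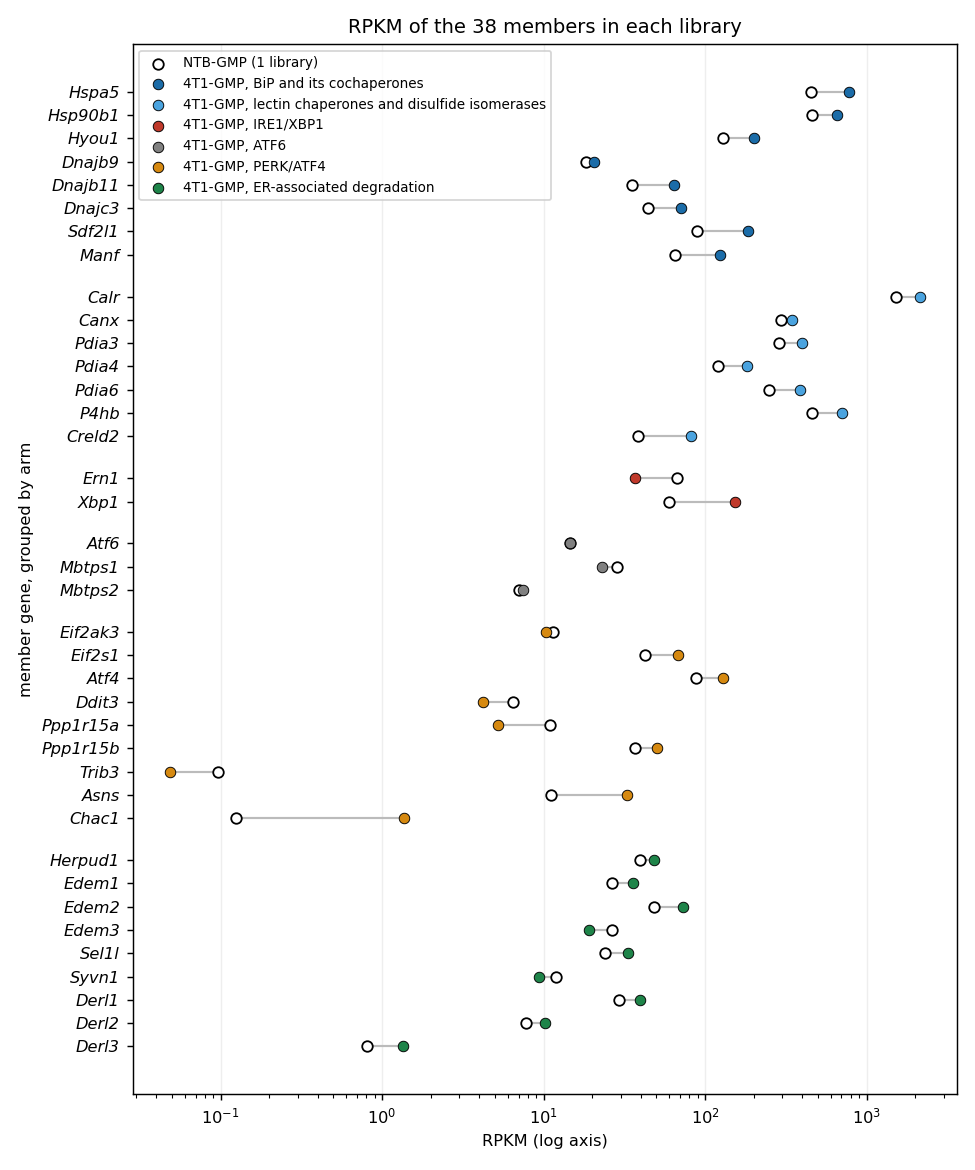
RPKM of each of the 38 members on a log axis, with open circles for the NTB-GMP library and filled circles for the 4T1-GMP library, colored by arm. The filled circle lies to the right for all 15 chaperones, while 8 members, Ern1, Ppp1r15a, Ddit3 and Edem3 among them, have it on the left.

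The ER-resident Hsp70 BiP, encoded by Hspa5 (chromosome 2, 34771970 to 34777547, in GENCODE M21), had 453 RPKM in NTB-GMP and 776 in 4T1-GMP. With 12077 and 60913 reads behind these values, the log2 ratio was 0.77 (interval 0.75 to 0.80), a 1.71-fold difference. Its rank by RPKM among all genes moved from 128 to 93. Hsp90b1, the ER paralog of Hsp90, had 457 and 652 RPKM, a log2 ratio of 0.51 (0.48 to 0.54), and so stood short of 1.5-fold. Hyou1, a nucleotide exchange factor of BiP, had 130 and 201 RPKM, with a log2 ratio of 0.63 (0.59 to 0.67).

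The cochaperones with a J domain, which stimulate the ATPase of BiP, differed among themselves. Dnajb11, which binds unfolded chains together with BiP, had 35.2 RPKM in NTB-GMP and 64.5 in 4T1-GMP, a log2 ratio of 0.87 (0.75 to 1.01). Dnajc3, which was also described as an inhibitor of PERK, had 44.1 and 70.7 RPKM (0.68, interval 0.62 to 0.75). Dnajb9, which recruits BiP to the lumenal part of IRE1, had 18.4 and 20.5 RPKM, and its interval of -0.02 to 0.33 included 0. Sdf2l1, a partner of the Dnajb11 product (chromosome 16, 17130138 to 17132383), had 89.4 and 184 RPKM, a log2 ratio of 1.04 (0.95 to 1.14). Manf, an ER protein that binds BiP and can be secreted, had 65.6 and 124 RPKM (0.92, interval 0.84 to 1.00). All 8 genes of this group had the higher value in 4T1-GMP, 6 of them by at least 1.5-fold, and the median log2 ratio was 0.73. Among all tested genes, 54.7% were higher and 9.80% at least 1.5-fold higher, with a median of 0.05.

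Except for Creld2, the genes of the group of lectin chaperones and disulfide isomerases were among the most abundant transcripts of both libraries. Calr, the calcium-binding lectin chaperone calreticulin, had 1522 RPKM in NTB-GMP and 2143 in 4T1-GMP, ranks 15 and 13 of all genes, with a log2 ratio of 0.49 (0.48 to 0.51). Canx, its membrane-bound relative calnexin, had 295 and 347 RPKM and the smallest log2 ratio of this group, 0.23 (0.21 to 0.26). Pdia3, the oxidoreductase that works with both lectins, had 286 and 397 RPKM (0.47, interval 0.42 to 0.52). The pair of lectins and their partner were thus higher in 4T1-GMP, each by less than 1.5-fold.

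The other disulfide isomerases stood close to the threshold. P4hb, the classical protein disulfide isomerase, had 461 RPKM in NTB-GMP and 705 in 4T1-GMP, a log2 ratio of 0.61 (0.59 to 0.64). Pdia6 had 248 and 388 RPKM (0.65, interval 0.60 to 0.69), and Pdia4 had 121 and 182 RPKM (0.59, interval 0.53 to 0.65). Creld2, an ER protein with EGF-like repeats that is known as a target of the UPR (chromosome 15, 88819646 to 88826683), had 38.5 and 82.2 RPKM, a log2 ratio of 1.09 (0.96 to 1.23). It had the largest ratio of the 15 chaperones and one of the lowest levels.

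Over both chaperone groups, all 15 genes were higher in 4T1-GMP and 10 (66.7%) were past 1.5-fold higher, with a median log2 ratio of 0.63. Among all tested genes, 54.7% were higher and 9.80% were past 1.5-fold higher. Many chaperones were abundant, and the 565 genes that averaged 100 RPKM or more had a median of 0.24, with 12.9% at least 1.5-fold higher. The sum of the RPKM of the 15 chaperones was 4265 for NTB-GMP and 6337 for 4T1-GMP, a ratio of 1.49. Without Rn45s in the library sizes, 14 of the 15 stayed above 0 and 5 were past 1.5-fold higher, with a median of 0.47. Of all tested genes, 39.2% and 5.73% were. After quantile normalization, all 15 were above 0 and 5 were past 1.5-fold higher, with a median of 0.34, where 50.5% and 9.48% of all tested genes were.

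**Figure D2:**
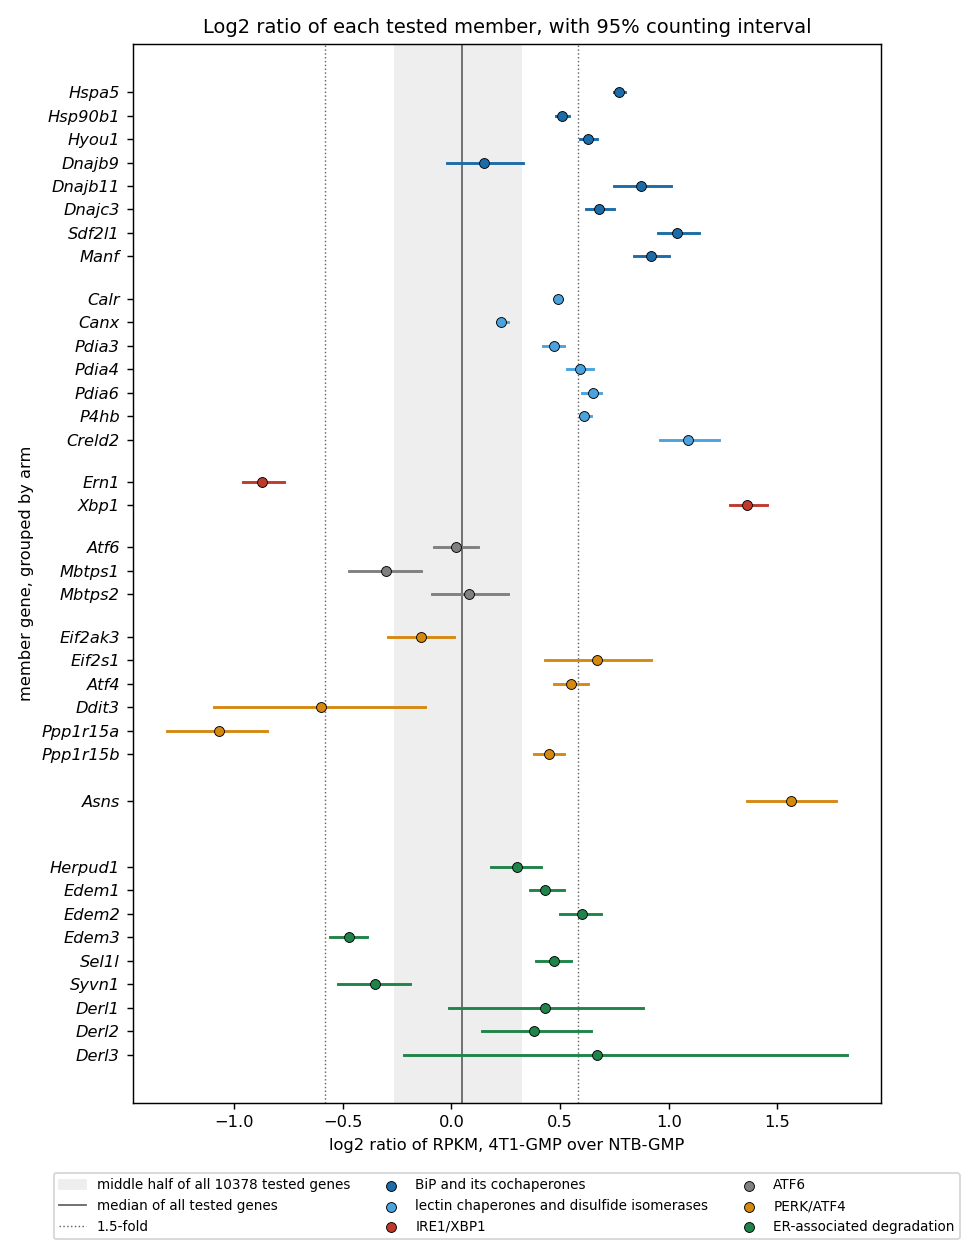
Log2 ratio of RPKM, 4T1-GMP over NTB-GMP, for the 36 tested members by arm, with lines for 95% counting intervals, a gray band for the interquartile range of all tested genes and dotted lines at 1.5-fold. Chaperones sit to the right of the band except Dnajb9 and Canx, the ATF6 arm sits on or near it, and the IRE1/XBP1 and PERK/ATF4 arms reach both sides.

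The genes of the IRE1/XBP1 arm differed in opposite directions. Ern1, which encodes the sensor IRE1α (chromosome 11, 106394650 to 106487852), had 67.4 RPKM in NTB-GMP and 37.0 in 4T1-GMP, a log2 ratio of -0.87 (-0.96 to -0.77). Xbp1, the transcription factor whose mRNA that sensor splices (chromosome 11, 5520659 to 5525893), had 59.8 and 154 RPKM, a log2 ratio of 1.36 (1.28 to 1.45). Xbp1 thus stood at 0.887 times the RPKM of Ern1 in NTB-GMP and at 4.17 times in 4T1-GMP, a ratio that does not depend on the size a library is divided by. The log2 ratio of Xbp1 was above that of 98.2% of tested genes, and that of Ern1 above 6.35%. One value per gene does not separate the spliced from the unspliced form of Xbp1 mRNA, so the splicing itself was not measured.

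The ATF6 arm had the median closest to 0 of all arms. Atf6, the sensor that is cleaved in the Golgi, had 14.5 RPKM in NTB-GMP and 14.6 in 4T1-GMP, a log2 ratio of 0.02 (-0.08 to 0.12). Mbtps2, the site-2 protease that completes the cut, had 7.00 and 7.42 RPKM (0.08, interval -0.09 to 0.26). Mbtps1, the site-1 protease that makes the earlier cut, had 28.4 and 23.0 RPKM, a log2 ratio of -0.30 (-0.47 to -0.14). None of the 3 genes was past 1.5-fold either way, and their median of 0.02 turned negative under the other scalings, to -0.15 at the lowest. The median of the chaperones exceeded that of this arm by 0.61. The RNA levels of these genes say nothing of how much of the ATF6 protein was cleaved.

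The PERK/ATF4 arm held the largest differences in both directions. Eif2ak3, which encodes PERK, had 11.4 RPKM in NTB-GMP and 10.4 in 4T1-GMP, and its interval of -0.29 to 0.01 included 0. Its substrate eIF2α, encoded by Eif2s1, had 42.6 and 67.9 RPKM, a log2 ratio of 0.67 (0.43 to 0.92). Atf4, the transcription factor at the center of the arm (chromosome 15, 80255184 to 80257541), had 88.0 and 129 RPKM, a 1.46-fold difference with a log2 ratio of 0.55 (0.47 to 0.63). ATF4 is controlled mainly at translation, which these libraries do not measure.

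Genes known as targets of ATF4 went different ways. Asns, the asparagine synthetase (chromosome 6, 7675169 to 7693254), had 11.2 RPKM in NTB-GMP and 33.0 in 4T1-GMP, a log2 ratio of 1.56 (1.36 to 1.77) and the largest of all tested members. Chac1, which breaks down glutathione, had 0.125 and 1.36 RPKM from 1 and 32 reads. It was under the minimum of mean RPKM, and its log2 ratio of 2.70 carried an interval of 0.86 to 8.79. Trib3, a pseudokinase, had 0.0958 and 0.0487 RPKM from 2 and 3 reads, so that its interval of -4.10 to 2.61 allows no direction.

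The stress-linked targets Ddit3 and Ppp1r15a had the lower value in 4T1-GMP. Ddit3, which encodes the transcription factor CHOP, had 6.43 RPKM in NTB-GMP and 4.21 in 4T1-GMP, a log2 ratio of -0.60 (-1.09 to -0.12) from 57 and 110 reads. Ppp1r15a, which encodes the inducible eIF2α phosphatase subunit GADD34 (chromosome 7, 45522916 to 45526268), had 11.0 and 5.20 RPKM, a log2 ratio of -1.07 (-1.31 to -0.85). Ppp1r15b, the constitutive counterpart of that subunit, had 36.7 and 50.3 RPKM (0.45, interval 0.38 to 0.52). The constitutive form was thus 3.34 times the inducible one in NTB-GMP and 9.67 times in 4T1-GMP. In the same way, Hspa5 stood at 70.5 times the RPKM of Ddit3 in NTB-GMP and at 184 times in 4T1-GMP. Ddit3 left the called genes at a pseudocount of 1 and after quantile normalization, whereas Ppp1r15a stayed at least 1.5-fold lower under each scaling.

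Genes of ER-associated degradation were mostly higher by small amounts. Herpud1, a membrane protein that organizes the degradation complex, had 39.4 RPKM in NTB-GMP and 48.4 in 4T1-GMP (log2 ratio 0.30, interval 0.18 to 0.41). The mannosidase-like proteins that mark glycoproteins for removal split, with Edem1 at 26.4 and 35.7 RPKM (0.43, interval 0.36 to 0.52) and Edem2 at 48.5 and 73.3 RPKM (0.60, interval 0.50 to 0.69). Edem3 went the other way, with 26.7 and 19.2 RPKM and a log2 ratio of -0.47 (-0.56 to -0.39). Edem2, whose product starts the mannose trimming that marks a glycoprotein, was the only one of the Edem genes past 1.5-fold.

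The ligase complex at the membrane was divided as well. Sel1l, the adaptor, had 24.1 RPKM in NTB-GMP and 33.3 in 4T1-GMP (log2 ratio 0.47, interval 0.39 to 0.55), whereas Syvn1, the ubiquitin ligase HRD1 that it holds, had 11.9 and 9.31 RPKM (-0.35, interval -0.52 to -0.19). The derlins, which form part of the exit channel, had higher values in 4T1-GMP but wider intervals. Derl2 had 7.80 and 10.2 RPKM (0.38, interval 0.14 to 0.64), and Derl1 had 29.2 and 39.3 RPKM with an interval of -0.01 to 0.88. The reads recovered for Derl1, 55 and 218, go with a length of only 185 bases. They may be too low, which would make its interval too wide. Derl3 had 0.809 and 1.35 RPKM from 11 and 54 reads, and its log2 ratio of 0.67 was within an interval of -0.22 to 1.82. Its call at 1.5-fold therefore lay inside counting error. In all, 7 of the 9 genes were higher (54.7% of all tested genes were), 2 were past 1.5-fold higher (22.2%, against 9.80%), and the median log2 ratio was 0.43. Without Rn45s in the library sizes, both called genes were short of 1.5-fold, Edem2 at 0.43 and Derl3 at 0.53.

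The other genes of the pathway, written as 6 lists of 129 genes found in the files, had smaller ratios at the median. Of the 112 that were tested, 81 (72.3%) were higher, 15 (13.4%) were at least 1.5-fold higher and 4 were at least 1.5-fold lower, with a median log2 ratio of 0.21. Over all tested genes these shares were 54.7% higher, 9.80% past 1.5-fold higher and 11.6% past 1.5-fold lower, so the share of 13.4% is near the background. The 33 other ER folding factors had a median of 0.29, with 6 higher by 1.5-fold and 1 lower. With a mean RPKM of 5 or more, the ends of that list were Fkbp11, a prolyl isomerase of the ER (33.6 and 63.0 RPKM, log2 ratio 0.90, interval 0.52 to 1.32), and Creld1 (0.86) on one side and Tor1b (-0.23) and Cnpy3 (-0.08) on the other. The gene called lower was Prdx4, an ER peroxiredoxin with 3.83 and 1.98 RPKM and a log2 ratio of -0.92, named after its value was seen. The 28 other degradation factors had a median of 0.17, with the ubiquitin-conjugating enzymes Ube2g2 (0.71) and Ube2j1 (0.69) past 1.5-fold higher and the lectin Erlec1 (9.96 and 5.93 RPKM, log2 ratio -0.74) past it on the lower side, followed by Ngly1 (-0.28).

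The lists closest to IRE1 and ATF6 held no tested gene past 1.5-fold. Among 7 other tested genes of the IRE1 branch, 0 were past 1.5-fold either way and the median was 0.17, with Ptpn1 (0.46) and Tmbim6 (0.43) highest and Map3k5 (-0.32) and Rtcb, a subunit of the ligase that joins the Xbp1 exons (-0.04), lowest. Among 6 other tested ATF6-family and Golgi-processing genes, with 4 more under the minimum of mean RPKM, 0 were past 1.5-fold and the median was 0.09, with Tmed2 (0.57) and Atf6b (0.39) above and Creb3l2 (-0.26) and Creb3 (-0.06) below. The intervals of Creb3l2 and Creb3 included 0.

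The 23 other ATF4-branch and eIF2 genes had a median of 0.37 on the log2 scale, and 5 (21.7%) were past 1.5-fold higher and 0 lower. Over all tested genes, these shares were 9.80% and 11.6%. Atf5, a translationally controlled relative of Atf4, had 3.25 RPKM in NTB-GMP and 7.25 in 4T1-GMP (log2 ratio 1.13, interval 0.78 to 1.55). Cebpb, a partner of ATF4 that also serves in granulocyte production, had 5.76 and 11.9 RPKM (1.04, interval 0.72 to 1.39). The other genes past 1.5-fold, named after their values were seen, were Sesn2 (0.96), Stc2 (0.90) and Eif2s2 (0.64). Sesn2, with 0.888 and 1.82 RPKM, reached the minimum only through its value in 4T1-GMP. Cebpg (-0.56) and the amino acid sensor kinase Eif2ak4 (-0.18) stood lowest. Among 15 genes of ER calcium handling the median was 0.07, with Nucb2 (1.07) and Tmem38b (1.01) past 1.5-fold higher (13.3%, near the share over all tested genes). The inositol trisphosphate receptors Itpr2 (-0.28) and Itpr1 (-0.22) were lower, and the 2 genes past 1.5-fold lower were Itpr3 (-1.43) and Rcn3 (-1.25), again named after their values were seen.

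**Figure D3:**
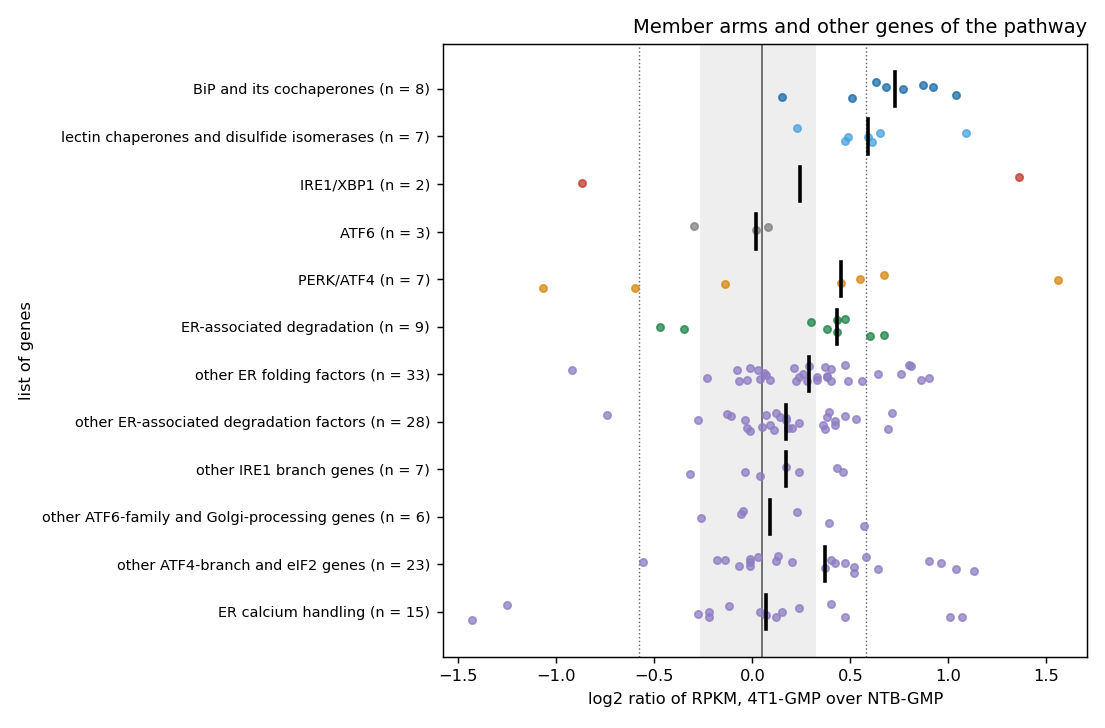
Log2 ratio of RPKM, 4T1-GMP over NTB-GMP, for tested members by arm (upper rows) and for 6 lists of other genes of the pathway (purple), where points are genes, black bars are medians and the gray band is the interquartile range of all tested genes. The medians of both chaperone rows, 0.73 and 0.59, lie to the right of every purple row, the highest of which is 0.37.

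Members with an ERSE or ERSE-II match in the window were mainly chaperones, 8 of 11. Of these 11 tested members, 10 were higher in 4T1-GMP and 6 were past 1.5-fold higher, with 0 lower by that fold and a median log2 ratio of 0.65. Derl3, among those 6, reached the minimum only through its value in 4T1-GMP, and its interval of -0.22 to 1.82 included 0. Over all tested genes, 54.7% were higher, 9.80% past 1.5-fold higher and 11.6% past it on the lower side. Of the 20 tested members with a window but neither match, 14 were higher, 7 were past 1.5-fold higher and 3 lower, with a median of 0.45. Among the 9 holders of ERSE itself the lowest was Syvn1 (-0.35), whose match lay nearest to the start, and the highest was Creld2 (1.09). Xbp1 and Asns, the members with the largest ratios, had neither match. Outside the members, 28 genes held the ERSE letters and 4 of them were tested, with a median of -0.18 and 0 past 1.5-fold either way. They were Alg12 (0.58), Adcy3 (-0.06), Pan2 (-0.30) and Hnrnpa3 (-0.40), named after their values were seen. Alg12, a mannosyltransferase of N-glycan assembly, lies head to head with Creld2, and the match in its window is the match printed for Creld2. A match describes letters in a window and does not show that a factor was bound there.

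**Figure D4:**
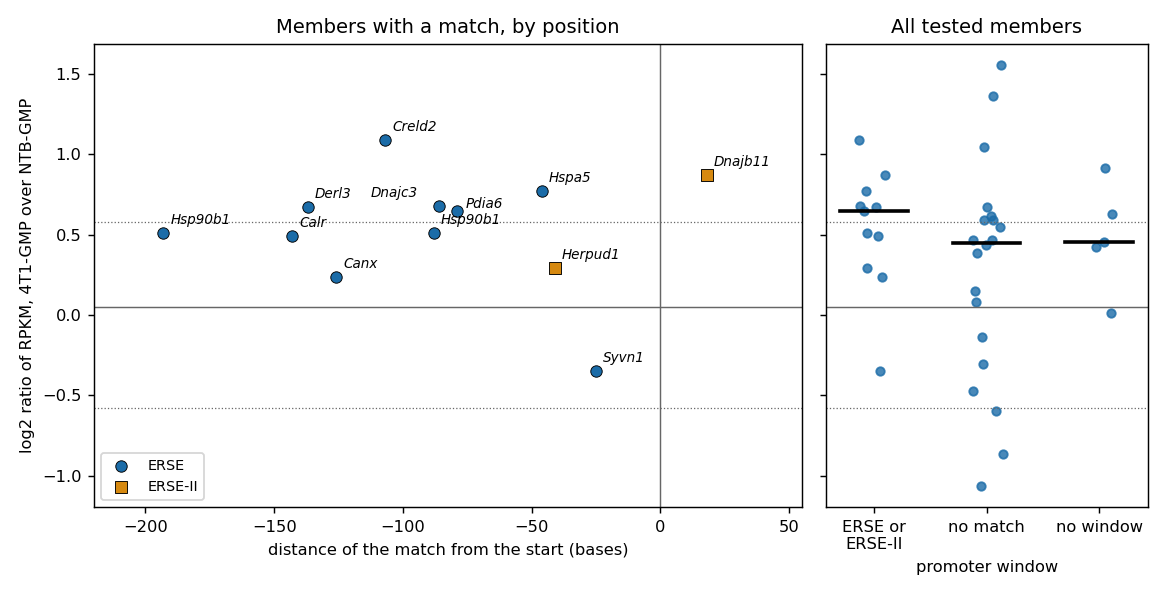
Left, log2 ratio of RPKM (4T1-GMP over NTB-GMP) against the distance in bases from the start to the near end of each ERSE or ERSE-II match, with Hsp90b1 plotted at both of its matches. Right, all tested members by whether the promoter window held a match, with black bars for medians (0.65 with a match, 0.45 without). Holders of a match reach from -0.35 to 1.09, inside the range of the members without one.

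The cells of the libraries were not alike in their markers of maturation. All 14 genes listed as neutrophil markers, granule genes such as Ltf, Ngp and Camp among them, were at least 1.5-fold higher in 4T1-GMP. Their summed RPKM was 532 for NTB-GMP and 4103 for 4T1-GMP. Mmp8, Mmp9 and Ly6g reached the minimum only through 4T1-GMP, with 0.521, 0.588 and 0.426 RPKM in NTB-GMP. Over all tested genes, 9.80% were at least 1.5-fold higher and 11.6% at least 1.5-fold lower. All 10 tested markers of monocytes and dendritic cells were at least 1.5-fold lower, with a sum of 275 and 83.8 RPKM over the list. Of 8 basophil and mast cell markers, 7 were lower by that fold (571 and 264 RPKM). Ly86, Cx3cr1 and Cma1 of these lists reached the minimum only through NTB-GMP. Markers of GMPs and primary granules were present in both libraries, with a sum of 10706 and 16408 RPKM. Of these 11 markers, 7 were higher in 4T1-GMP and 4 lower, 5 and 3 of them by at least 1.5-fold. Mpo, the granule myeloperoxidase, had 5163 and 5625 RPKM. The granule proteases Elane (1853 and 2935 RPKM), Prtn3 (1399 and 3311) and Ctsg (1388 and 2998) were higher, as was Ms4a3 (479 and 1220). The 4 lower markers were Cd34 (154 and 59.4 RPKM), Kit (78.5 and 49.1), Fcgr3 (53.1 and 28.6) and Cebpa (45.6 and 35.5). In bulk samples, fewer cells of a type and less RNA per cell cannot be told apart. The part of these markers in the higher chaperone values was not tested.

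Plasma cells carry much of the same secretory machinery and depend on Xbp1. The 11 plasma cell and B cell markers had a summed RPKM of 16.4 for NTB-GMP and 12.9 for 4T1-GMP, of which Cd79b alone gave 14.7 and 12.4. The other 10 were under a mean RPKM of 1. Mzb1 was listed at 0 in both libraries, and Jchain had 0.187 and 0.285 RPKM.

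The median of the chaperones stayed above 0 under each scaling, but its size did not hold, and Dnajb9 fell just below 0 without Rn45s (-0.01). As a median log2 ratio, the 15 chaperones went from 0.63 to 0.58 when centred on the median of all tested genes, to 0.47 without Rn45s and to 0.34 after quantile normalization. The median of all tested genes went from 0.05 to 0.00, -0.11 and 0.00 under the same settings. The 36 tested members exceeded all tested genes by 0.43 as reported and by 0.31 after quantile normalization. Leaving out Rn45s moves every gene by about the same amount, so the 0.43 found there again was fixed in advance.

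**Figure D5:**
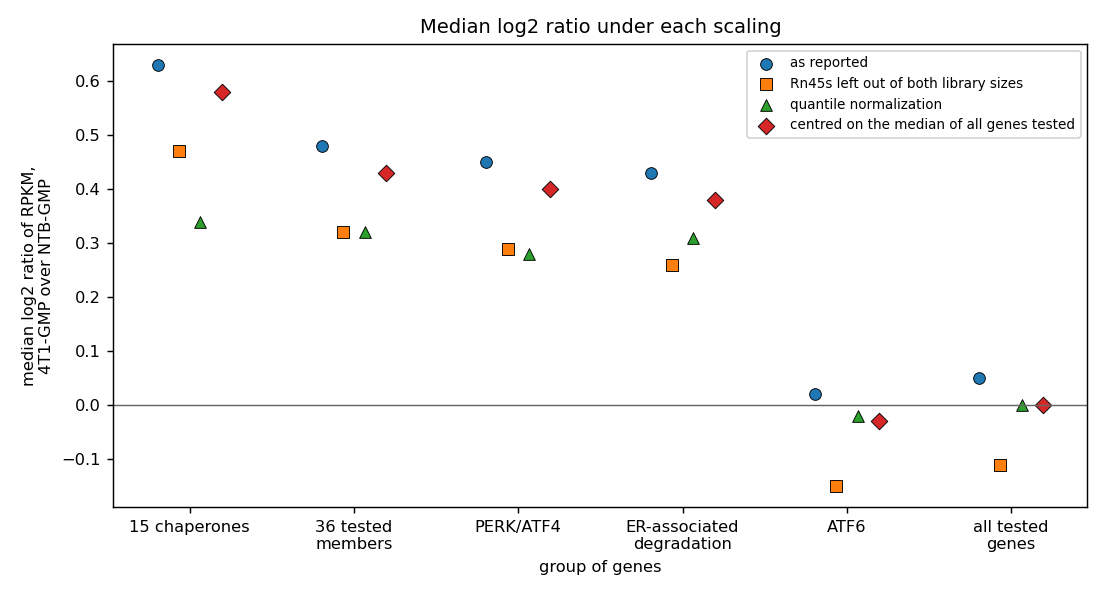
Median log2 ratio of RPKM (4T1-GMP over NTB-GMP) for the chaperones, all tested members, 3 arms and all tested genes, as reported and under each of the other scalings. The chaperones lie highest under each setting, from 0.34 to 0.63, and the ATF6 arm lies within 0.15 of 0.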

How the data were processed

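GMPs were sorted by flow cytometry from bone marrow of tumor-free mice and of mice with 4T1 tumors, total RNA was taken up in TRIzol, and 1 Illumina library was made per group. The authors deposited RPKM, 1 value per gene symbol and library. The submitters' processing notes name CASAVA 1.8.2, cutadapt 1.2.1, TopHat2 2.0.13, Picard 1.97, HTSeq 0.6.1, edgeR 3.12.1 and mm10, without the role of each. Strandedness, the gene models and the gene lengths are not given in the sources used here. Without strand, reads of 10 members cannot be told from those of an overlapping gene on the other strand, and 4 members overlap another gene on their own strand. The labels give an F1 background, whereas the paper's methods name BALB/c and C57BL/6 mice.

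Whole reads and the sizes behind the RPKM were recovered from ratios of the deposited values. The sizes were not whole numbers (10180365.24 and 30016262.80), as a library size multiplied by a normalization factor would give, and that factor was not recovered. Recovered reads came to 9486697 and 26353075, and for some genes (such as Eif2s1, Derl1 and Chac1) may be too low by a common factor, which widens their intervals. Scripts were tested on simulated data. The members and lists were chosen with earlier results of these data known. Named were all 38 members and, in each list of other genes, the 2 largest differences in each direction with a mean RPKM of at least 5. Of those lists, 1 symbol was not found. Alternatives were pseudocounts of 1 and 0.01, library sizes without Rn45s, quantile normalization, centring, other minimum values and a fold of 2. Gene positions are from GENCODE M21 (GRCm38), and promoter windows from RefSeq GRCm38.p6, whose ends were found in a transcript of the same symbol for 29 of 33 members. Python 3.11.15, numpy 2.4.6, pandas 2.3.3, scipy 1.17.1 and matplotlib 3.10.9 were used.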

Additional observations from a re-analysis of the deposited data

How the results depend on the processing

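Each group had 1 library, so the values compare these libraries and not the conditions, and no library could be left out. No paired analysis was possible because neither group had a second library. Members at least 1.5-fold higher came to 15 as reported, 7 with Rn45s left out of both library sizes, 8 after quantile normalization and 4 at a fold of 2. Members lower came to 3 as reported and 1 at a fold of 2. Over all tested genes, the shares higher were 9.80%, 5.73%, 9.48% and 3.25% in the same order. The shares lower were 11.6% as reported, 17.0% without Rn45s and 4.92% at a fold of 2. The split of higher to lower was 15 to 3 as reported and 7 to 4 without Rn45s, where Edem3 joined the lower genes. The median log2 ratio of all members went from 0.48 to 0.32 without Rn45s and to 0.32 after quantile normalization. That of the chaperones went from 0.63 to 0.47, 0.34 and, when centred on the median of all tested genes, 0.58. The median of the ATF6 arm went from 0.02 to -0.15 without Rn45s, -0.02 after quantile normalization and -0.03 when centred. Leaving out Rn45s and centring move every gene by about the same amount, and the cause of the other differences was not tested. Over 5 alternatives for each of 38 members, 135 of 190 values stayed within the interval of the reads. The 55 beyond it all came from the rescalings (without Rn45s, quantile normalization and centring), since neither pseudocount moved a member out of its interval. Dnajb9, Atf6 and Mbtps2 changed sign in at least 1 alternative. Other genes of the pathway past 1.5-fold higher, of 112 tested, numbered 15 as reported, 11 without Rn45s and 15 after quantile normalization. Of all tested genes, 9.80%, 5.73% and 9.48% were. A comparison of ER retention tails was not run, since no protein sequences were used here. Depth limits Trib3, Chac1 and Derl3 above all, each with 11 or fewer reads in NTB-GMP.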
